A study of Homo sapiens with 6 samples.

Results

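The replication-dependent histone genes were examined in MDA-MB-231 cells, an established triple-negative breast cancer line, with and without silencing of TIP-1. They were taken as the rows of the value table whose annotated symbol begins with H2AC, H2BC, H3C or H4C, or an older HIST symbol, or is one of the linker histones H1-1 to H1-6. The rule found 78 of the 33297 rows, all among the 21214 rows with at least 1 gene symbol. In these, 4 rows repeated the values of another row on every array, which left 74 distinct rows for 72 gene symbols. Of the distinct rows, 57 carried 1 symbol and 17 carried several. Genes of 1 histone type can be closely alike in coding sequence, and probes can then read more than 1 copy. Whether this accounts for each row with several symbols was not tested. By type the distinct rows held 6 for H1, 15 for H2A, 23 for H2B, 12 for H3, 15 for H4 and 3 annotated to genes of 2 types.

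The study held 6 arrays (Affymetrix Human Gene 1.0 ST), 2 for cells with TIP-1 shRNA 159, 2 for cells with TIP-1 shRNA 162 and 2 for cells with a control shRNA. Each array came from an independent clone of the parental line, so n = 2 clones per group and no technical replicates. A clone also carries whatever set its founding cell apart, and with 2 clones a group this cannot be told apart from the hairpin. All cells were grown in RPMI medium with serum and were left overnight after reseeding before total RNA was taken.

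Replication-dependent histone genes supply the H1, H2A, H2B, H3 and H4 proteins that package newly copied DNA, and their transcripts build up in S phase. Most of them lie in clusters on chromosomes 6 and 1, have no introns and make mRNA that ends in a stem-loop in place of a poly(A) tail. The stem-loop is bound by SLBP, and NPAT, a target of cyclin E with CDK2, activates their transcription at the histone locus body. The labelling kit named for these arrays primes at random positions, so transcripts without a poly(A) tail are also copied.

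Values are log2 signals as the authors deposited them, and differences were tested with limma across all 21214 rows with a symbol. A row is said to have passed where its Benjamini-Hochberg adjusted p was under 0.05. The array medians lay between 7.37 and 7.44. TAX1BP3, the gene of TIP-1, read 10.40 and 10.40 in the shRNA 159 clones, 9.85 and 10.01 in the shRNA 162 clones, and 11.65 and 11.56 in the control clones, on a row that also reads its readthrough transcript with P2RX5. It fell to 43.4% of control with shRNA 159 (limma adjusted p = 0.00034) and to 31.3% with shRNA 162 (limma adjusted p = 4.37e-05). Markers of this line such as VIM and CD44 averaged 13.18 and 13.33 in the control clones. Not all were bright, since mean signals of the 7 listed markers over all arrays ran from 7.88 to 13.32. Those of the 7 genes listed as low or absent ran from 5.97 to 8.04, so the lists overlapped. Under the first quartile on all arrays were 1 of 4 leukocyte markers (PTPRC), 2 of 4 fibroblast markers (DCN and LUM) and 0 of 3 endothelial markers. The summed leukocyte signal was 11.65 and 11.61 in the shRNA 159 clones, 11.57 and 11.56 in the shRNA 162 clones, and 11.85 and 11.86 in the control clones on the log2 scale, most of it from LAPTM5, which fell by 0.32 with shRNA 162 (limma adjusted p = 0.0317). EPCAM, an epithelial adhesion gene listed as low in this line, rose by 0.94 with shRNA 159 (limma adjusted p = 0.000857). The part of these markers in the histone values was not tested.

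Array signal does not rank transcript levels between probe sets, so the spread of the rows is only a description of these values. Of the 74 rows, 16 had a mean log2 signal of 12 or more (21.6%), against 2.55% of all rows tested. The highest was H1-4, a main somatic linker histone, with a mean signal of 14.23 near the highest value on any array, 14.65. Whether signals this high were still proportional to transcript level was not tested. At the low end, 8 rows were under the first quartile on all 6 arrays (10.8% of the rows, against 11.3% of all rows tested), and their differences are differences in array signal alone. The median over the 74 rows was 8.18 and 8.15 in the shRNA 159 clones, 8.27 and 8.11 in the shRNA 162 clones, and 8.18 and 8.19 in the control clones, so the groups overlapped. Over all rows tested it lay between 7.86 and 7.91 on the 6 arrays.

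With shRNA 162 against control, 1 of 74 histone rows passed, H2BC12, and it fell (limma, Benjamini-Hochberg adjusted). In this comparison 9.52% of all rows passed, 5.88% as higher and 3.64% as lower. At an unadjusted p under 0.05 the histone rows numbered 8, against 25.1% of all rows. With shRNA 159 against control 0 of 74 passed in limma, 2 at an unadjusted p under 0.05, where 2.53% of all rows passed (1.69% higher, 0.839% lower) and 14.1% had an unadjusted p under 0.05. For the mean of both hairpins against control 0 passed in limma (4.62% of all rows, 3.01% higher and 1.61% lower), 7 at an unadjusted p under 0.05 (19.8% of all rows). Between the hairpins, shRNA 159 minus shRNA 162, 0 passed in limma (8.65% of all rows, 4.02% higher and 4.64% lower), 5 at an unadjusted p under 0.05 (24.2% of all rows). A difference of 2-fold or more was seen in 0 of 74 histone rows in each of these comparisons. Of all rows, 0.207% differed that much with shRNA 159, 0.424% with shRNA 162, 0.184% for both hairpins and 0.424% between hairpins.

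The 95% intervals show how narrowly each row was measured. With shRNA 162 the 95% interval of the log2 difference lay within 0.5 either side of 0 for 66 of 74 histone rows (83.3% of all rows tested). With shRNA 159 it did so for 70 of 74 rows (90.1% of all rows), for the mean of both hairpins for 69 (93% of all rows) and between the hairpins for 69 (84.1% of all rows). The rows with a wider or shifted interval with shRNA 162 were H2BC12, H2AC15, H2AC25, H2BC1, H2BC8, H3C3, H2BC19P and a row annotated to H2BC18 and FCGR1BP. With shRNA 159 they were H2BC12, H3C3, H2BC19P and the H2BC18 and FCGR1BP row. The median absolute difference was 0.059 over the histone rows and 0.116 over all rows with shRNA 162, and 0.069 and 0.090 with shRNA 159. Between the 2 clones of a group the median absolute difference of the histone rows was 0.087 for shRNA 159, 0.082 for shRNA 162 and 0.104 for control, against 0.109, 0.0807 and 0.0869 over all rows. These set 1 array against another, while the group differences set means of 2 clones against each other, so their sizes are not directly comparable.

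**Figure D1:**
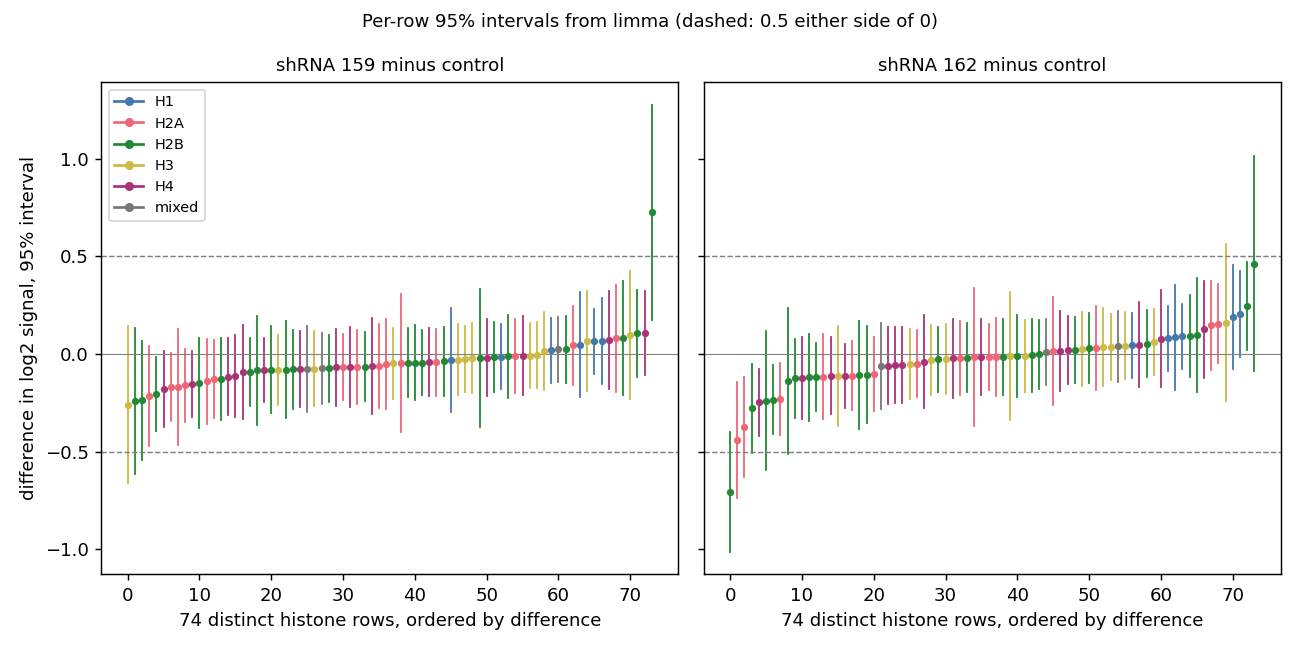
Difference in log2 signal with its 95% interval (vertical axis) for each of the 74 distinct histone rows, ordered along the horizontal axis, for shRNA 159 minus control (left) and shRNA 162 minus control (right). Points are limma estimates coloured by histone type, n = 2 clones per group. Of the 74 intervals, 70 on the left and 66 on the right stay within the dashed lines at 0.5 either side of 0, and the lowest on the right is H2BC12, from -1.01 to -0.40.

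The H2B genes encode a core histone that pairs with H2A, and H2BC12 (formerly HIST1H2BK) is one of their copies on chromosome 6. H2BC12 read 11.24 and 11.07 in the shRNA 159 clones, 10.65 and 10.72 in the shRNA 162 clones, and 11.60 and 11.18 in the control clones. Each shRNA 162 clone was lower than each control clone, whereas the shRNA 159 clones overlapped control. The log2 difference of H2BC12 between shRNA 162 and control was -0.71 (SE 0.13, limma adjusted p = 0.0154), so the signal was 61.2% of that in control. With shRNA 159 its difference was -0.24 (SE 0.13, limma adjusted p = 0.487). The hairpins differed by 0.47 on that row (95% interval 0.16 to 0.78, limma adjusted p = 0.0674), which did not pass.

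The control clones differed by 0.42 on the H2BC12 row, more than on any other histone row. Without control clone 1 the difference with shRNA 162 was -0.50 (limma adjusted p = 0.0739), without shRNA 162 clone 1 it was -0.67 (limma adjusted p = 0.0829), without shRNA 162 clone 2 it was -0.74 (limma adjusted p = 0.0691), and the call was lost each time. Another row is annotated to H2BC12 together with H2BC12L, H2BC17 and H2BC5. That row read 13.35 and 13.26 in the shRNA 162 clones and 13.30 and 13.35 in the control clones, a difference of -0.02. It did not repeat the fall, but a row shared with other genes cannot show H2BC12 alone.

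The other 22 H2B rows did not pass in any comparison. H2BC11, also on chromosome 6, read 7.47 and 7.45 in the shRNA 159 clones, 7.20 and 7.32 in the shRNA 162 clones, and 7.51 and 7.49 in the control clones. Its difference was -0.23 with shRNA 162 (limma adjusted p = 0.0995) and -0.04 with shRNA 159. H2BC21 (formerly HIST2H2BE), a copy on chromosome 1, had a row of its own that read 9.06 and 8.85 in the shRNA 162 clones, against 8.73 and 8.68 in the control clones. The groups did not overlap on it, but its difference of 0.25 did not pass (limma adjusted p = 0.159), and a brighter row it shares with the pseudogenes H2BC19P and H2BC20P differed by -0.03.

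The H2B row with the largest difference with shRNA 159 was that of the pseudogene H2BC19P. H2BC19P read 6.36 and 5.84 in the shRNA 159 clones, 6.22 and 5.45 in the shRNA 162 clones, and 5.43 and 5.32 in the control clones. All 4 TIP-1 shRNA clones lay above both control clones, while clones with the same hairpin differed by up to 0.77. Its difference was 0.73 with shRNA 159 (SE 0.24, limma adjusted p = 0.209) and 0.46 with shRNA 162 (SE 0.24, limma adjusted p = 0.279). H2BC6 read 7.30 and 7.30 in the shRNA 159 clones, below both other groups, at -0.20 against control (limma adjusted p = 0.31). The brightest H2B row, H2BC14, read 13.71 and 13.77 in the shRNA 159 clones, 13.73 and 13.74 in the shRNA 162 clones and 13.75 and 13.68 in the control clones.

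**Figure D2:**
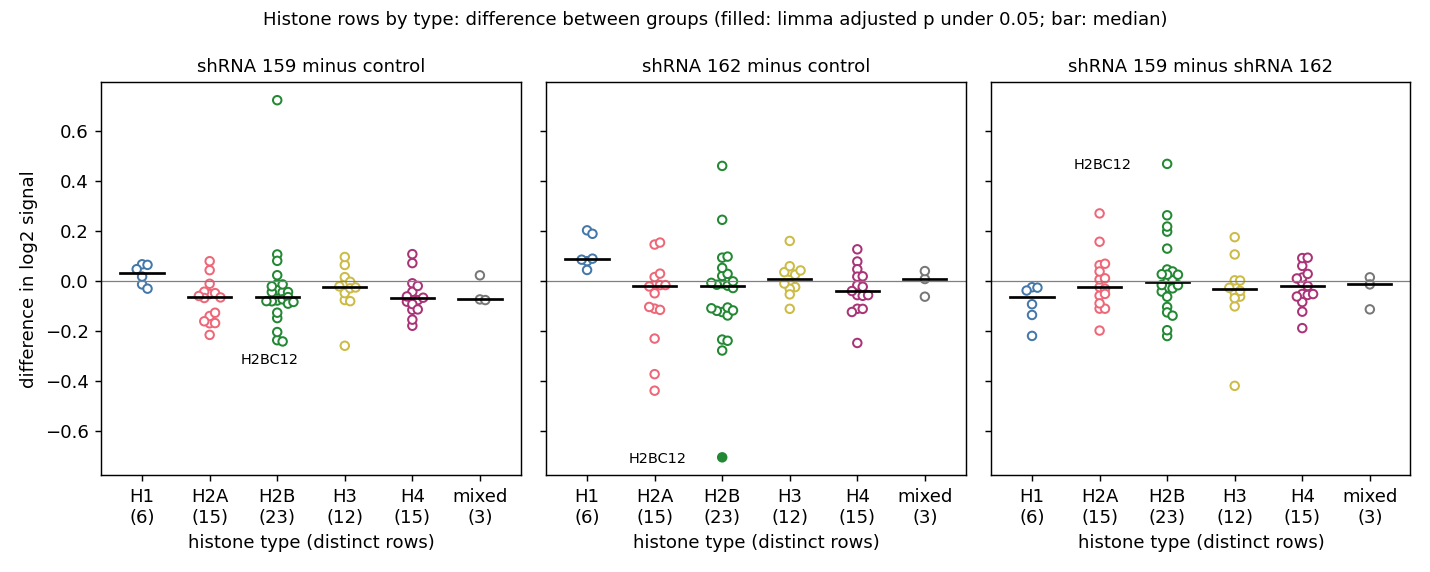
Difference in log2 signal (vertical axis) of each distinct histone row by histone type (horizontal axis, number of rows in brackets), for shRNA 159 minus control, shRNA 162 minus control and shRNA 159 minus shRNA 162. Each circle is 1 row, the bar is the median of the type, and a filled circle passed in limma; the 1 filled circle is H2BC12 with shRNA 162, at -0.71.

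H2A, the partner of H2B in the nucleosome, had 0 of 15 rows that passed in any comparison, with 3 at an unadjusted p under 0.05 with shRNA 162 in limma. H2AC15 (formerly HIST1H2AK) read 11.66 and 11.83 in the shRNA 159 clones, 11.54 and 11.41 in the shRNA 162 clones, and 12.11 and 11.72 in the control clones. Its shRNA 162 clones read lower than the control clones, and the difference of -0.44 (SE 0.13) did not pass (limma adjusted p = 0.0735). The shRNA 159 clones overlapped control on H2AC15 (difference -0.17). A row annotated to H2BC15 and H2AC15 together differed by 0.01 with shRNA 162.

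H2AC25 (formerly HIST3H2A) belongs to a small cluster on chromosome 1 and was dim. H2AC25 read 6.00 and 6.10 in the shRNA 159 clones, 6.04 and 5.74 in the shRNA 162 clones, and 6.35 and 6.18 in the control clones. Each of the 4 TIP-1 shRNA clones read lower than each control clone, with differences of -0.22 (shRNA 159, limma adjusted p = 0.44) and -0.37 (shRNA 162, limma adjusted p = 0.0749). H2AC6 (formerly HIST1H2AC) showed the same order, with 10.68 and 10.78 in the shRNA 159 clones, 10.65 and 10.68 in the shRNA 162 clones and 10.94 and 10.84 in the control clones. Its differences of -0.16 and -0.23 did not pass (limma adjusted p = 0.423 and 0.117). Among the bright H2A rows H2AC20 differed by -0.02 and H2AC21 by -0.10 with shRNA 162. Without control clone 2, H2AC15 differed by -0.63 with shRNA 162, since only the control clone that read higher on that row was left. Leaving out control clone 1 instead keeps the lower control clone, and so gives a smaller fall.

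H4, the most conserved core histone, had 0 of 15 rows that passed in any comparison, with 1 at an unadjusted p under 0.05 with shRNA 162 and 0 with shRNA 159 in limma. That row was H4C8 (formerly HIST1H4H), which read 8.17 and 8.15 in the shRNA 162 clones, 8.24 and 8.27 in the shRNA 159 clones, and 8.45 and 8.38 in the control clones. All 4 TIP-1 shRNA clones lay below both control clones. The H4C8 differences of -0.25 with shRNA 162 (SE 0.07, limma adjusted p = 0.0749) and -0.16 with shRNA 159 (SE 0.07, limma adjusted p = 0.40) did not pass. H4C15, a copy on chromosome 1 whose row held the same values as that of H4C14, also had all 4 TIP-1 shRNA clones below both control clones, with differences of -0.08 for shRNA 159 and -0.11 for shRNA 162. H4C6 differed by -0.18 with shRNA 159 (limma adjusted p = 0.391). H4C16, which stands alone on chromosome 12, differed by -0.07 and 0.02. The bright H4C3 row differed by -0.04 with shRNA 159 and 0.02 with shRNA 162.

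**Figure D3:**
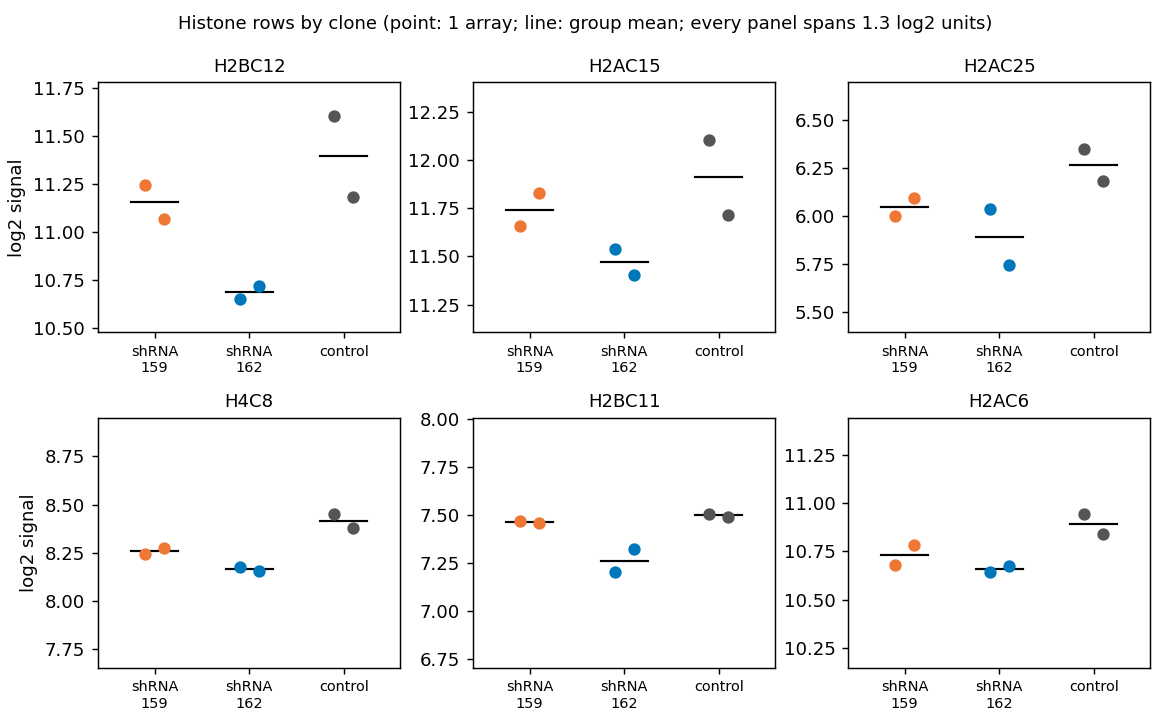
Log2 signal (vertical axis) of 6 histone rows in the shRNA 159, shRNA 162 and control clones (horizontal axis). Each point is 1 array, the line is the mean of 2 clones, and each panel spans the same number of log2 units; the rows were picked for reading lower with shRNA 162 at an unadjusted p under 0.05, leaving out the dim H2BC1, so their shared direction follows from the choice, and of the 6 only H2BC12 passed with shRNA 162.

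H3, the core histone whose tail carries many of the marks of chromatin, had 0 of 12 rows that passed in any comparison, and 0 at an unadjusted p under 0.05 against control with either hairpin in limma. H3C3 had the largest differences, and the most scatter. H3C3 read 7.803 and 7.998 in the shRNA 159 clones, 8.585 and 8.057 in the shRNA 162 clones, and 7.995 and 8.325 in the control clones. The shRNA 159 clones lay below the shRNA 162 clones by 0.42 on average (95% interval of the log2 difference -0.82 to -0.02, limma adjusted p = 0.187). H3C11 differed by -0.11 with shRNA 162 and 0.06 with shRNA 159. The bright rows were level, with H3C2 at 13.01 and 13.03 in the shRNA 159 clones, 13.05 and 13.13 in the shRNA 162 clones, and 13.04 and 13.04 in the control clones.

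The linker histones, which bind the nucleosome where DNA enters and leaves, had 0 of 6 rows that passed in any comparison, and 0 at an unadjusted p under 0.05 with either hairpin in limma. All 6 H1 rows were above control with shRNA 162, from 0.04 (H1-4) to 0.20 (H1-1), with a median of 0.09. Of all rows tested, 44.6% lay below control in that comparison. The H1 rows had a median mean signal of 6.83, below the array medians (7.37 to 7.44), and the lowest was 6.13, so dim rows carry much of this pattern. In bulk RNA, fewer cells of a kind and less RNA per cell cannot be told apart. In the other types the median was -0.02 for H2A, -0.02 for H2B, 0.01 for H3 and -0.04 for H4, against 0.02 over all rows tested. After quantile normalization all 6 H1 rows were still above control with shRNA 162, with a median of 0.09, and the median of H2A was -0.12, of H2B -0.06, of H3 -0.02 and of H4 -0.06, against -0.01 over all rows. With shRNA 159 the H1 median was 0.03, with 4 of 6 rows above control, and after quantile normalization it was 0.08, with 5 of 6 above.

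H1-1 read 6.15 and 6.35 in the shRNA 162 clones, against 5.96 and 6.13 in the control clones (difference 0.20, limma adjusted p = 0.234). H1-2, an abundant somatic linker histone, read 12.19 and 12.19 in the shRNA 162 clones and 12.12 and 12.10 in the control clones, a difference of 0.08 (limma adjusted p = 0.549). H1-3 read 6.72 and 6.76 in the shRNA 162 clones, against 6.65 and 6.66 in the control clones. In 4 of the 6 H1 rows the shRNA 162 clones lay above both control clones, as in 33.3% of all rows tested. H1-5 (0.09) and H1-6 (0.19) overlapped control, and H1-5 turned to -0.05 without control clone 2 and to -0.02 without shRNA 162 clone 1.

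**Figure D4:**
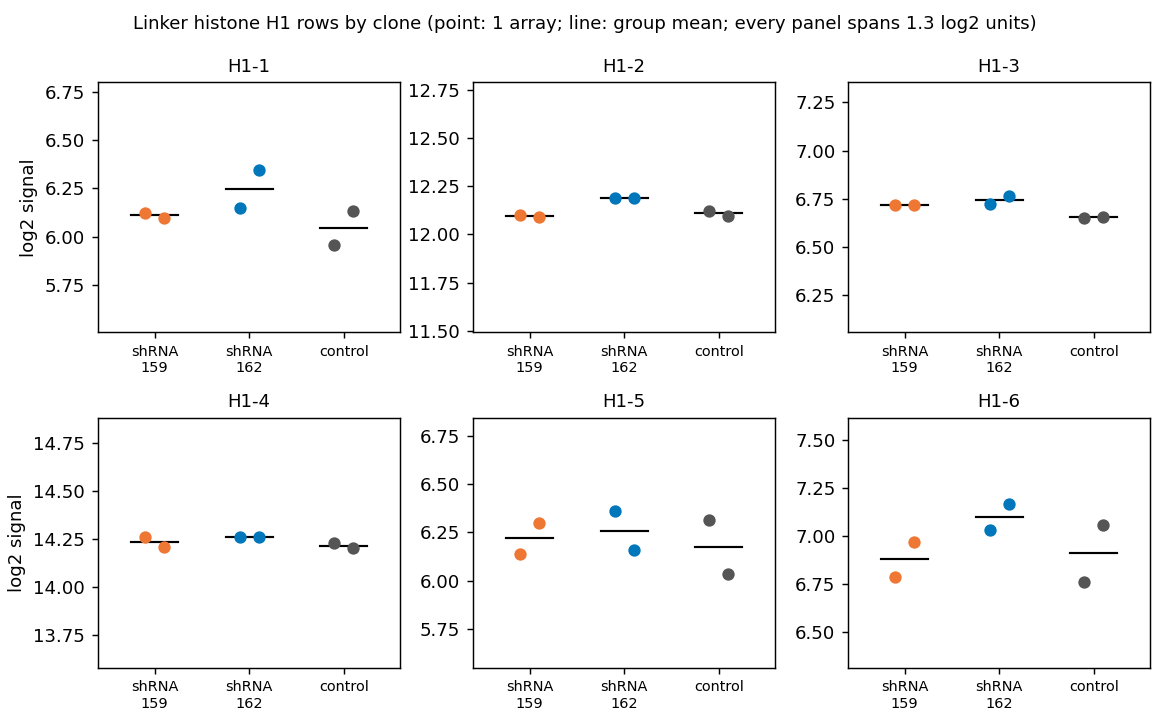
Log2 signal (vertical axis) of the 6 linker histone rows in the shRNA 159, shRNA 162 and control clones (horizontal axis). Each point is 1 array, the line is the mean of 2 clones, and each panel spans the same number of log2 units; the shRNA 162 mean is above the control mean in all 6 panels, by 0.04 to 0.20.

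Genes known for expression in the testis had dim rows. H1-6, the testis linker histone, read 6.79 and 6.97 in the shRNA 159 clones, 7.03 and 7.17 in the shRNA 162 clones and 6.76 and 7.06 in the control clones. H2BC1, a testis H2B, read 4.92 and 5.04 in the shRNA 159 clones, 4.93 and 4.77 in the shRNA 162 clones and 5.23 and 5.02 in the control clones, under the first quartile on all arrays. Its partner H2AC1 read 5.98 and 6.07 in the shRNA 159 clones, 6.35 and 6.10 in the shRNA 162 clones and 6.13 and 6.03 in the control clones. None of the 3 passed in any comparison.

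Counted without regard to size or test, more histone rows lay below than above control. With shRNA 159, 58 of 74 were below control, against 54.5% of all rows tested, and with shRNA 162, 44 of 74 were below, against 44.6%. For the mean of both hairpins 51 were below control (49.8% of all rows), and 45 were lower with shRNA 159 than with shRNA 162 (59.9% of all rows). The median difference was -0.05 with shRNA 159 (all rows -0.01) and -0.02 with shRNA 162 (all rows 0.02). After quantile normalization 55 rows were below control with shRNA 159 and 49 with shRNA 162, where all rows had 53.1% and 53.3% below, and 35 were lower with shRNA 159 than with shRNA 162 (49.5% of all rows), so that direction turned. Without control clone 1 the direction with shRNA 162 turned, with 33 of 74 rows below control (49.5% of all rows) and a median of 0.03. With shRNA 159 it was then 45 of 74 (57.7% of all rows). Both counts use the same control clones. Clones did not overlap, with all 4 TIP-1 shRNA clones below both control clones, in 9 of 74 histone rows (8.9% of all rows tested), and with all 4 above in 2 (13% of all rows tested). The 9 were H2AC25, H2AC6, H2AC11, H4C8, H4C15, H2BC5, H2BC11 and 2 rows shared by several genes, and the 2 were H2BC19P and H1-3. For single hairpins, there was no overlap with control in 19 histone rows with shRNA 159 (42.4% of all rows), 2 higher (20.7%) and 17 lower (21.7%). With shRNA 162 it was 28 rows (56.6% of all rows), 12 higher (33.3%) and 16 lower (23.3%), and between the hairpins 28 (51.9%), 7 higher (19.3%) and 21 lower (32.6%) with shRNA 159. Both directions for the mean of both hairpins came to 11 rows, against 21.9% of all rows.

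Many H2A and H2B genes start back to back from 1 short stretch of DNA. Going by RefSeq promoters, 10 divergent histone pairs had a distinct row for each gene, 9 of them of H2A with H2B (215 to 248 bases between the starts), and the other H3C7 with H2BC9 (979 bases). With shRNA 162 both members lay below control in 5 pairs and the members had opposite signs in the other 5. With shRNA 159 both lay below in 6 pairs and the signs were opposite in 4. In that comparison 13 of the 15 H2A rows and 19 of the 23 H2B rows lay below control, paired or not. H2AC25 and its partner H2BC26 differed by -0.37 and -0.12 with shRNA 162, H2BC11 and H2AC11 by -0.23 and -0.11, and H2BC4 and H2AC6 by -0.11 and -0.23. H2BC21 and H2AC20 went apart, at 0.25 and -0.02, as did H2AC1 and H2BC1, at 0.15 and -0.28, and H2BC8 and H2AC8, at -0.24 and 0.03.

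Promoters were read to see what the histone genes share outside the probes. Of the 72 symbols, 64 had a promoter in the RefSeq table (GRCh38.p14), and 250 bases before the start were searched on both strands. The TATA box core TATAAA occurred in 42 of 64 histone promoters (65.6%) and in 11.1% of all 27305 promoters. CCAAT, the site of NF-Y, occurred in 54 of 64 (84.4%) and in 33.0% of all promoters. TTTGCAT, part of the octamer bound by OCT1 (POU2F1), occurred in 26 of 64 (40.6%) and in 3.98% of all promoters. By type TTTGCAT was in 14 of 18 H2B promoters and 11 of 16 H2A promoters, but in 1 of 11 for H3 and 0 of 13 for H4. CCAAT was in all 18 H2B, 16 H2A, 11 H3 and 6 H1 promoters and in 3 of 13 H4 promoters. No motif contains another, and divergent pairs share sequence, so these promoters are not independent.

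For each histone type, the promoter of the row with 1 symbol, a promoter in the table and the smallest p with shRNA 162 is shown as the 150 bases before its start, 5′ to 3′ on the gene's strand, with the 3 motifs in capitals. All lie on chromosome 6 of GRCh38.p14, at chr6:27146859-27147008 for H2BC12, chr6:27838376-27838525 for H2AC15, chr6:26285535-26285684 for H4C8, chr6:26017788-26017937 for H1-1 (all minus strand) and chr6:26045234-26045383 for H3C3 (plus strand).
H2BC12: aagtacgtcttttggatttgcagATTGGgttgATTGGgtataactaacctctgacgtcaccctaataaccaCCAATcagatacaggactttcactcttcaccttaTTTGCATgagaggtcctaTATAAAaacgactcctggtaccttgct
H2AC15: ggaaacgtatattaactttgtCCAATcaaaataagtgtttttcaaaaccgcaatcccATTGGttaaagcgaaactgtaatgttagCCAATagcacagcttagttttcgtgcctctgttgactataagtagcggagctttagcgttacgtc
H4C8: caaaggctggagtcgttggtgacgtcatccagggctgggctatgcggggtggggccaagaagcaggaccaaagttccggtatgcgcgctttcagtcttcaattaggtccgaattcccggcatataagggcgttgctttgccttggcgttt
H1-1: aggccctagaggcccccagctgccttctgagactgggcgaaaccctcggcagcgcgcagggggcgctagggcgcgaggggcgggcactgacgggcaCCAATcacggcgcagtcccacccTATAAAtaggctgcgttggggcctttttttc
H3C3: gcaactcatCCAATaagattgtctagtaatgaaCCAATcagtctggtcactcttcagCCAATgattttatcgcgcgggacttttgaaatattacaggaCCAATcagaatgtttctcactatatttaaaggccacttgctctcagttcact
The H2BC12 promoter, of the 1 row that passed, holds TATAAA from 27 bases before the start, TTTGCAT from 45 bases and CCAAT at 3 places, while the H4C8 window holds none of the 3. A match is a description of the sequence and not a site shown to be bound.

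The machinery that makes, processes and deposits histones was read from lists of genes chosen with earlier results of these data known. In the list of histone mRNA 3′ end processing and decay, 3 of 15 genes rose with shRNA 162 and 0 fell (median 0.22, all rows 0.02), in limma, where 5.88% of all rows rose and 3.64% fell. At an unadjusted p under 0.05 were 10 of the 15 in limma, against 25.1% of all rows. They did not all move 1 way, as NCBP2 differed by -0.34 (limma adjusted p = 0.0528), which did not pass. SLBP, which binds the histone stem-loop, read 10.99 and 10.94 in the shRNA 162 clones, against 10.61 and 10.55 in the control clones. Both shRNA 162 clones lay above both control clones, and SLBP rose by 0.39 (limma adjusted p = 0.0165). LSM1, a subunit of the ring that binds decaying mRNA, rose by 0.64 (limma adjusted p = 0.00251), and UPF1, a helicase of mRNA decay that acts on histone mRNA, rose by 0.44 (limma adjusted p = 0.02).

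With shRNA 159 SLBP read 10.52 and 10.48, a difference of -0.08 from control, and the hairpins differed on it by -0.46 (shRNA 159 minus shRNA 162, limma adjusted p = 0.00854). In the same list 1 of 15 genes rose with shRNA 159 (1.69% of all rows), CPSF3, the endonuclease that cuts histone and other pre-mRNA, by 0.59 (limma adjusted p = 0.0128). CPSF3 read 10.23 and 10.07 in the shRNA 159 clones, 9.84 and 9.82 in the shRNA 162 clones and 9.63 and 9.47 in the control clones.

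Of 10 genes of the histone locus body and histone gene transcription, 0 passed against control with either hairpin in limma. At an unadjusted p under 0.05 in limma were 4 with shRNA 162 and 0 with shRNA 159. Of all rows, 9.52% passed with shRNA 162 and 2.53% with shRNA 159, and 25.1% and 14.1% had an unadjusted p under 0.05. The same shares apply to the other lists and to the counts by histone type. NPAT differed by 0.18 with shRNA 162, and CCNE2, a cyclin E, by -0.31 (limma adjusted p = 0.0753). Of 20 histone chaperones 0 passed against control in limma, with 5 and 2 at an unadjusted p under 0.05 for shRNA 162 and shRNA 159. SSRP1, a subunit of FACT, differed by 0.27 (limma adjusted p = 0.0615) and ASF1B, a carrier of H3 and H4, by -0.23 with shRNA 162. Of 13 replication-independent histones and variants 0 passed in limma in any comparison, with 1 at an unadjusted p under 0.05 for each hairpin. H2AX, the variant phosphorylated at DNA breaks, differed by -0.21 with shRNA 162 (limma adjusted p = 0.13).

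Genes of S phase, when histone mRNA builds up, moved both ways with shRNA 162. Of 29, SLBP included, 4 rose and 2 fell in limma (median 0.15), where 5.88% of all rows rose and 3.64% fell, and 0 passed with shRNA 159 (median 0.003, 2.53% of all rows passed), with 1 at an unadjusted p under 0.05. The helicase subunits MCM2 and MCM7 rose by 0.51 and 0.33 with shRNA 162, and CDT1, which loads the helicase, rose by 0.32. RFC4, of the clamp loader, fell by 0.62 and the uracil glycosylase UNG fell by 0.58. Of 24 genes of G2 and M phase 2 fell with shRNA 162 (3.64% of all rows), the kinase AURKA by 0.49 and the kinetochore gene NDC80 by 0.45, and 0 passed with shRNA 159, with 2 at an unadjusted p under 0.05, in limma. The share of cells in each phase was not measured, and its part in the histone values was not tested.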

How the data were processed

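The deposited table holds log2 signals per probe set, which the authors computed in Affymetrix's Exon Array Computational Tool, per the series' design text. Its settings were not given in the sources used here. Base 2 was taken from the span of the values (2.29 to 14.65). The authors' values were used without further scaling.

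Rows were named from the platform's probe table. A model with 3 groups was fitted to 21214 rows by lmFit and eBayes of limma 3.58.1 (R 4.3.3), with 3 residual and 5.31 prior degrees of freedom. Tests were two-sided, and p values were Benjamini-Hochberg adjusted over all rows. The fit was run on simulated data with planted changes and independent arrays, which does not test effects of clone or batch. Histone rows with identical values were counted once. Arrays give no count depth, and their number limits the precision. The clones are called independent by the submitters. The p-values rest on the spread between clones of a group, moderated in eBayes by that of all rows. For the mean of both hairpins they leave out the spread between hairpins. There the limma adjusted p of TAX1BP3 was 4.7e-05, against 0.0187 with the 4 TIP-1 shRNA clones as 1 group and 0.0227 with the hairpin as a random block. Promoter sequences came from RefSeq (GRCh38.p14). Figures were drawn with matplotlib 3.10.9.

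The members and lists were chosen with earlier results of these data known. Text names all histone rows that passed, in each type those among the 4 smallest p of a comparison or the 2 brightest, the rows of testis genes and of the former HIST3 cluster, and list members that passed or had the smallest p. H4C16, H2AC20, LAPTM5, NPAT, the shared H2BC12 and H2BC15 rows and some divergent pairs were named after their values were seen. Alternatives were quantile normalization, brighter rows, all rows, identical rows once, a variance trend, a replicate block, only the arrays compared, the 4 TIP-1 shRNA clones as 1 group, the hairpin as a random block and leaving out each array. Histone rows with 1 symbol only, and counts of rows below 0 without each array, were added after seeing the data.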

Additional observations from a re-analysis of the deposited data

Results flagged for a closer look

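No histone row passed the direct test between the hairpins in limma, and H2BC12 came nearest at 0.47 (limma adjusted p = 0.0674). Of 109 listed genes of histone supply and cell cycle, 12 passed (shRNA 159 minus shRNA 162, log2 difference, limma), where 8.65% of all rows did, so the count is near that of all rows. Lower with shRNA 159 than with shRNA 162 were SLBP at -0.46 (limma adjusted p = 0.00854), UPF1 at -0.41, LSM1 at -0.54, MCM2 at -0.41, MCM7 at -0.30 and CDT1 at -0.43. Higher with shRNA 159 were the cap-binding subunit NCBP2 at 0.58, the chaperone NAP1L4 at 0.32, the ribonucleotide reductase subunit RRM2 at 0.37, RFC4 at 0.61 (limma adjusted p = 0.00495), UNG at 0.45 and AURKA at 0.49. Groups of 2 clones are too small for a search for single outlying arrays.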

How the results depend on the processing

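H2BC12 stayed below control with shRNA 162 under all 13 alternatives. Most of these, such as the variance trend, cannot change the difference of -0.71, so its sign was fixed there. The difference was -0.74 after quantile normalization (limma adjusted p = 0.011) and -0.92 to -0.50 when 1 array was left out. With both clones of each compared group kept, limma adjusted p ran from 0.00014 (variance trend) to 0.0826 (all rows fitted, not passed). Without control clone 1 or either shRNA 162 clone the call was also lost, as given above. Of 74 histone rows, 1 passed with shRNA 162; the count was 0 with all rows of the table in the fit, 4 of 40 among brighter rows (H2BC12, H2AC15, H2AC6 and H4C8), 3 with a variance trend, and 0 to 2 when 1 array was left out. For the mean of both hairpins minus control it was 0, but 1 after quantile normalization, 3 among brighter rows, 4 with a variance trend, 2 with the replicate block and 0 to 1 when 1 array was left out. For shRNA 159 minus control it was 0, 1 with the replicate block (H2BC19P) and 0 when any array was left out. For shRNA 159 minus shRNA 162 it was 0, but 1 (H2BC12) among brighter rows, with a variance trend, with the replicate block, with only the 4 arrays compared, and 0 to 1 when 1 array was left out. The share of all rows that passed among brighter rows or with a variance trend is not given here. These counts are therefore no result about histone rows in particular. With shRNA 162 the limma adjusted p of TAX1BP3 also fell, from 4.37e-05 to 6.39e-07 among brighter rows and 1.66e-10 with a variance trend. The cause of these shifts was not tested. The median histone difference changed sign with shRNA 162 without control clone 1 (0.03, against -0.02) and between the hairpins after quantile normalization (0.01, against -0.02). Keeping rows with 1 symbol only and counting rows below 0 with each array left out were chosen after seeing the data. The medians ranged over -0.06 to 0.03 (shRNA 162), -0.07 to -0.02 (shRNA 159), -0.05 to -0.01 (both hairpins) and -0.04 to -0.004 (between hairpins) when 1 array was left out. Of 109 listed supply and cell cycle genes 14 passed in at least 1 comparison, 43 of 104 among brighter rows, 43 with a variance trend, 5 with all rows in the fit, and 5 to 15 when 1 array was left out. For these listed genes too the share of all rows under each alternative is not given, so the counts are no result about them. TAX1BP3 differed between the hairpins by 0.47, with limma adjusted p = 0.068 when all rows were fitted. When 1 array was left out its difference was 0.39 to 0.55 between the hairpins, -1.75 to -1.60 with shRNA 162, -1.25 to -1.16 with shRNA 159 and -1.49 to -1.39 for both.

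Clone numbers are shared by the groups. Deviations of same-numbered clones correlated at 0.26 (shRNA 159 with control), -0.05 (shRNA 162 with control) and -0.03 (shRNA 159 with shRNA 162). With so few clones per group, these values cannot decide whether same-numbered clones shared more than a number, which was not tested. With the replicate block, calls over all rows were 2128 against 2019 with shRNA 162 and 584 against 537 with shRNA 159. Calls were 1011 against 980 for the mean of both hairpins and 1983 against 1836 between the hairpins. Rows near the top of the signal range and rows below the lower quartile limit what the arrays can show.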
